A study of Mus musculus with 4 samples.

Results

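Corticotropin-releasing hormone (CRH), the stress peptide encoded by Crh, was followed here with its binding protein, its receptors and the related urocortin peptides in RNA from mouse prefrontal cortex. The 6 genes, Crh, Crhbp, Crhr1, Crhr2, Ucn and Ucn3, were taken by symbol from the 24100 genes of the count tables. No cut-off on a measured value was used, but the genes were chosen with earlier results of these data known. All animals were untreated adult male Crh-IRES-Cre mice, which express Cre recombinase from the Crh locus. The groups were 1 Input library, the RNA of whole homogenized tissue, and 3 immunopurified (IP) libraries, the RNA that came down with EGFP-tagged polysomes on anti-EGFP beads, a method called TRAP. Each library pooled 5 males, and the labels did not state which construct carried the tag or whether different animals went into each IP library. P-values therefore measure the spread between these libraries, which may be partly technical. Such a line is used to place the tag in cells that make Cre, so the level of Crh also serves as the check of the labels.

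CRH is released in the hypothalamus to start the hormonal stress response, and in the cortex it is made by local inhibitory interneurons. It signals through CRHR1, a receptor of the class B family that raises cyclic AMP through Gs, and the related receptor CRHR2 is bound by the urocortins. CRHBP is a secreted protein that binds CRH and urocortin and keeps them from the receptors.

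The coding ends of the 3 peptide genes are shown because the mature peptide is cut from the end of each precursor, which makes clear what the counts of Crh, Ucn and Ucn3 stand for. Each line gives the last 132 coding bases with the stop codon, 5′ to 3′ on the sense strand, read from the GENCODE M21 transcripts for GRCm38. Capitals in Crh and Ucn mark the longest run that these ends have in common (14 bases), and capitals in Ucn3 mark its longest run in common with Crh (7 bases).
Crh: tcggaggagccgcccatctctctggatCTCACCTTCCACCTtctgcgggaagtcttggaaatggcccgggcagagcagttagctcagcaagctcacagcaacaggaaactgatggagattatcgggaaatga
Ucn: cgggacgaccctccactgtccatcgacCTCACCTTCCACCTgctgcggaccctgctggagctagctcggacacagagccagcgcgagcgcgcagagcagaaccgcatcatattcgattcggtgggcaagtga
Ucn3: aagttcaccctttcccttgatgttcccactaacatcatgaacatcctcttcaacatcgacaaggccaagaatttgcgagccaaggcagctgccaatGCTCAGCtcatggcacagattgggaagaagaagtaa
In a global alignment 64.3% of the 129 aligned bases were identical between Crh and Ucn, against 55.7% of 122 between Crh and Ucn3. The whole coding sequences of the receptor genes Crhr1 and Crhr2 were 73.2% identical over 1241 aligned bases. Runs of identical bases that Crh shared with Ucn or Ucn3 were thus short within these coding ends. The rest of the peptide gene transcripts was not compared. No exon base of any of the 6 genes lay within an exon of another annotated gene.

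The Input held 14474529 counts and the IP libraries between 10031072 and 23548375. Levels are given as CPM, the count scaled by library size and TMM factor. Markers of the cell types that the tissue holds were checked first. All 8 markers of GABAergic neurons lay above the Input in all 3 IP libraries, with a summed level of 2877 to 3786 CPM against 634 CPM. The 6 markers of Vip-class interneurons also did so (3874 to 5885 CPM against 506 CPM). So did 6 of 6 endothelial markers (87.7 to 170 CPM against 10.97 CPM). By contrast, every IP library was below the Input for 6 of 6 astrocyte markers and for 5 of 6 microglial markers. Some gaps were small, as for Aqp4 (57.0, 54.4 and 6.38 CPM in IP 1, 2 and 3, against 57.4 CPM). At an adjusted p under 0.05, edgeR called 3 GABAergic and 5 Vip-class markers higher, beside 0.458% of all genes tested. It called 0 endothelial, 0 astrocyte and 0 microglial markers, so for these lists the direction alone is given. No marker of these lists was at 0 in every library. Of the 14636 genes that passed the filter on low counts, 19.7% lay above the Input in all 3 IP libraries and 24.1% below it.

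Crh was the single gene of the 6 that passed the test, and its level was higher in IP. Its RNA was scarce in the whole tissue and ranked among the most abundant transcripts per length on the captured ribosomes. Crhbp and Crhr1 were detected in every library at low levels and did not pass the test. Crhr2 had 5 counts in all, and the urocortin genes had none. So 3 of the 6 genes passed the filter on low counts and were tested, and 1 was called (adjusted p under 0.05 in the quasi-likelihood test of edgeR), beside 0.458% of the 14636 genes tested.

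**Figure D1:**
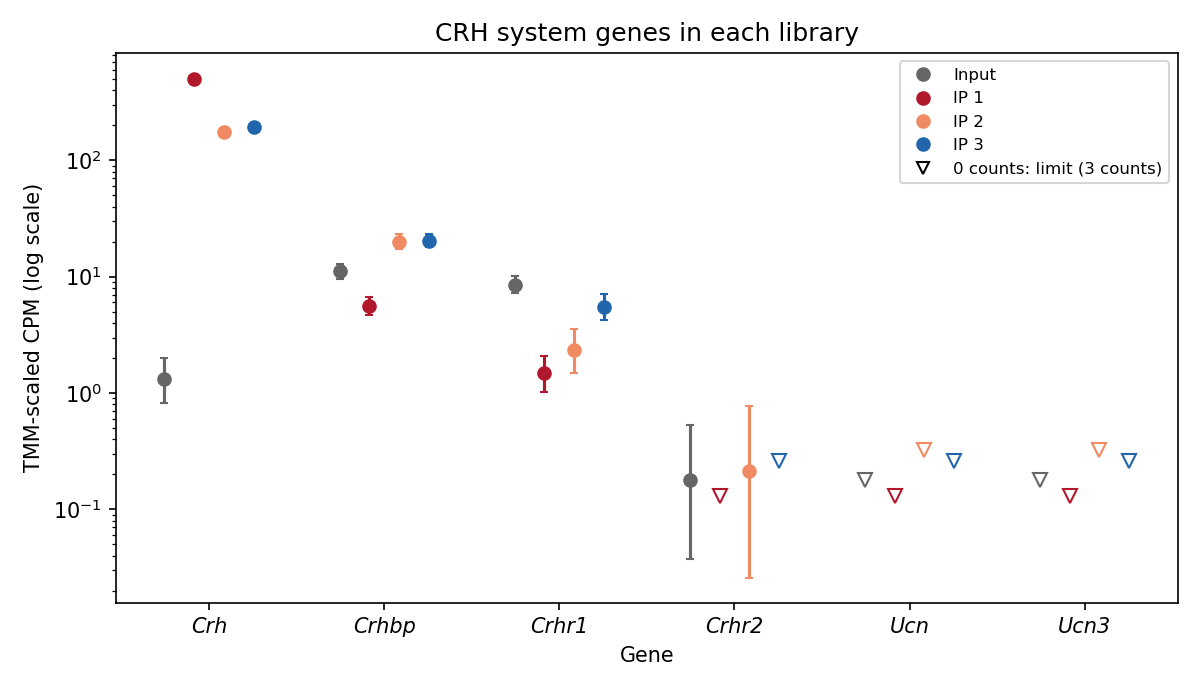
Level of each gene in the Input (grey) and in IP 1, 2 and 3, as TMM-scaled CPM on a log axis. Bars are exact 95% Poisson intervals, which cover counting error only, and open triangles are the level that 3 counts would give where a library had 0 counts. Crh lies between 174 and 501 CPM in the IP libraries and at 1.32 CPM in the Input, whereas Crhbp reaches at most 20.4 CPM and Crhr1 at most 8.52 CPM.

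Crh (Entrez 12918) lies on chromosome 3, from 19693401 to 19695396 on the minus strand of GRCm38, with 2 exons. It had 22 counts in the Input, a level of 1.32 CPM with a 95% counting interval of 0.827 to 1.997 CPM. In the IP libraries it had 11497, 1626 and 2238 counts, which gave 501, 174 and 193 CPM in IP 1, 2 and 3. Every IP library was therefore far above the Input, and IP 1 was the highest. Per kilobase of exon Crh ranked 11089 among the 16760 genes with counts and a known length in the Input. In IP 1, 2 and 3 it ranked 41 of 14397, 193 of 13688 and 148 of 13904.

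The mean of Crh in IP was 289 ± 184 CPM (SD, n = 3), and the log2 fold over the Input was 7.77 ± 0.87 (SE, 95% interval 5.94 to 9.59, adjusted p = 9.66e-05, edgeR). All 3 IP libraries were above the Input, as for 19.7% of tested genes. By library the level was 380, 132 and 146 times that of the Input. By log2 fold Crh ranked 22 among the 14636 genes tested, and 1 of the 67 called genes had a larger one. With Cre expressed from the Crh locus and IP set against whole tissue, this fold serves as the check of the labels. It does not measure a change of Crh within cells. The RNA of Crh per cell and the share of cells with captured ribosomes cannot be told apart in such pooled libraries. By limma-voom, which called 0.348% of genes, the log2 fold was 7.73 but the adjusted p was 0.426, and by DESeq2, which called 1.38%, Crh stayed called. Over 11 alternative fits its adjusted p ran from 4.91e-26 to 0.426. Without IP 1 the log2 fold was 7.09, a linear fold 1.60 times lower.

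The IP libraries themselves differed in Crh. The level in IP 1 was 2.88 times that in IP 2, and their counting intervals did not overlap (492 to 510 CPM in IP 1, 166 to 183 CPM in IP 2). Of 1387 tested genes whose mean IP level lay within 2-fold of that of Crh, 3.53% spanned at least as wide a range over the IP libraries, and the median gene spanned 1.56-fold. Crh was thus among the more variable genes at its level of abundance.

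Crhbp (Entrez 12919) lies on chromosome 13, from 95431371 to 95444924 on the minus strand. It had 185 counts in the Input (11.1 CPM) and 128, 187 and 237 counts in IP 1, 2 and 3, which gave 5.58, 19.99 and 20.4 CPM. IP 1 was below the Input while IP 2 and IP 3 were above it, so the groups overlapped. The mean in IP was 15.3 ± 8.45 CPM (SD, n = 3). The log2 fold was 0.46 ± 1.197 (SE, adjusted p = 0.9999, edgeR). Its 95% interval ran from -2.04 to 2.97, and so took in linear folds from 0.243 to 7.84. By limma-voom the log2 fold turned to -0.0027. The counting intervals of IP 1 (4.65 to 6.63 CPM) and IP 2 (17.2 to 23.1 CPM) did not overlap, and the 3.66-fold range over the IP libraries was reached by 39.8% of 3903 genes of like level.

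In cortex Crhbp is best known from a share of the somatostatin interneurons. The 6 markers of that class summed to 1168, 1075 and 1321 CPM in IP 1, 2 and 3, against 499 CPM in the Input, and Sst stood at 708, 581 and 746 CPM in IP 1, 2 and 3, against 332 CPM in the Input. Of these markers 4 of 6 were above the Input in all 3 IP libraries, beside 19.7% of tested genes. Sst was above the Input in IP 1, where Crhbp was below it. Pdyn (6.10 against 9.47 CPM) and Chodl (0.174 against 0.540 CPM), named after their values were seen, were also below the Input there. The part of somatostatin interneurons in the level of Crhbp was not tested.

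Crhr1 (Entrez 12921) lies on chromosome 11, from 104132855 to 104175523 on the plus strand, with 13 exon blocks. It had 142 counts in the Input (8.52 CPM) and 34, 22 and 64 counts in IP 1, 2 and 3, which gave 1.48, 2.35 and 5.52 CPM. All 3 IP libraries were below the Input, as for 24.1% of tested genes, and IP 3 came nearest to it. The counting interval of the Input (7.17 to 10.04 CPM) lay just above that of IP 3 (4.25 to 7.05 CPM). The mean in IP was 3.12 ± 2.12 CPM (SD, n = 3).

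The log2 fold of Crhr1 was -1.45 ± 1.65 (SE, adjusted p = 0.9999, edgeR), with a 95% interval from -4.91 to 2.01. The pooled counts gave 0.321 times the Input, with an interval of 0.250 to 0.412 that covers counting error only. The difference was thus larger than counting error and smaller than the spread that edgeR allowed between libraries. At this level such a spread was common, since 71.3% of 2266 genes of like level spanned at least the 3.72-fold range of Crhr1 over the IP libraries. Excitatory neurons are a main site of Crhr1 in cortex. Their 8 markers summed to 3286, 6283 and 5007 CPM in IP 1, 2 and 3, against 5284 CPM in the Input. Most of this sum was Camk2a, at 2590, 4976 and 4160 CPM against 2902 CPM. Of these markers 6 of 8 were below the Input in all 3 IP libraries, beside 24.1% of tested genes. In edgeR 2 were called lower, Nrgn (log2 fold -2.11, adjusted p = 0.0141) and Nrn1 (-3.04, adjusted p = 0.00225), beside 0.458% of genes in either direction. Camk2a, Nrgn and Nrn1 were named after their values were seen. Slc17a7, which encodes a transporter that loads glutamate into vesicles, stood at 201, 403 and 214 CPM in IP 1, 2 and 3, against 633 CPM in the Input. The part of these cells in the level of Crhr1 was not tested.

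**Figure D2:**
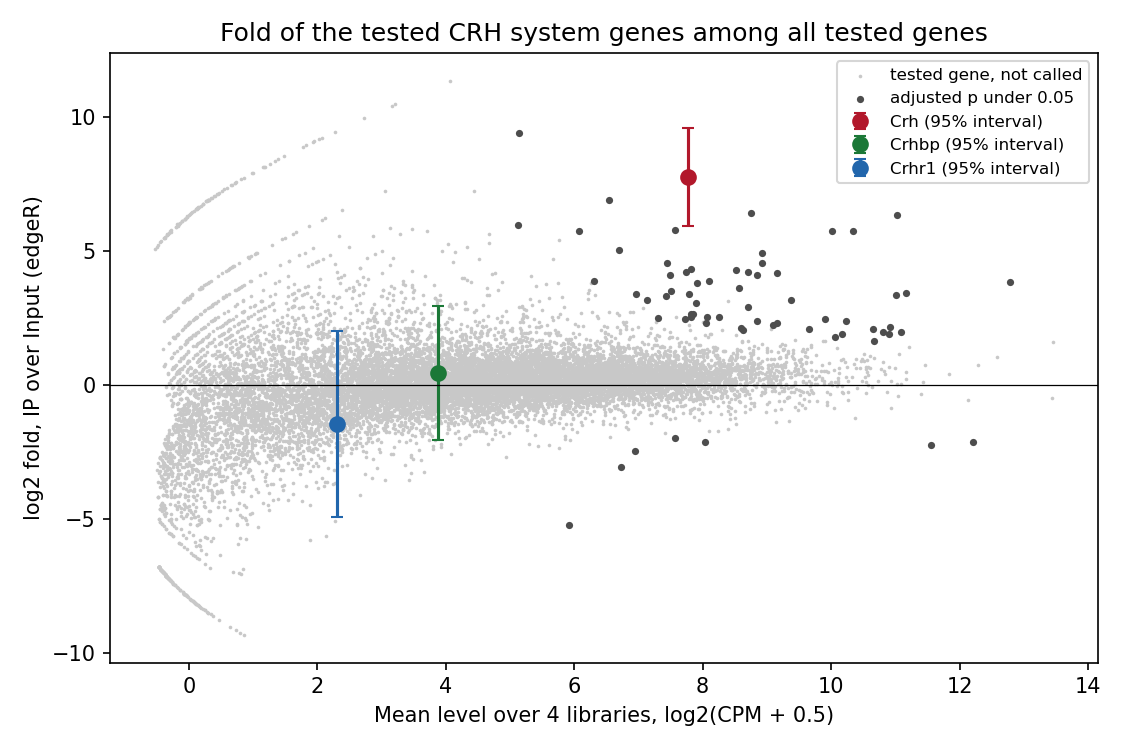
log2 fold of IP over Input from edgeR against the mean level over the 4 libraries, log2(CPM + 0.5), for all 14636 tested genes. Crh (log2 fold 7.77), Crhbp (0.46) and Crhr1 (-1.45) are drawn with 95% intervals, and only that of Crh lies apart from 0.

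Crhr2 (Entrez 12922, chromosome 6, 55090049 to 55133016, minus strand) had 3 counts in the Input, 2 in IP 2 and 0 in IP 1 and IP 3. The pooled IP counts gave 0.253 times the Input, with a counting interval of 0.0212 to 2.21, so no difference was detectable at this depth. A level of 0 counts allowed up to 0.131 CPM in IP 1 and 0.259 CPM in IP 3. Crhr2 did not pass the filter. In an unfiltered fit of 17642 genes its log2 fold was -1.37 ± 3.37 (SE, adjusted p = 0.9999, edgeR).

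Ucn (Entrez 22226, chromosome 5, 31138063 to 31138829, minus strand) and Ucn3 (Entrez 83428, chromosome 13, 3940688 to 3945349, minus strand) had 0 counts in every library. Urocortin is best known from a midbrain nucleus and urocortin 3, a ligand of CRHR2, from the hypothalamus and amygdala. For each gene, 0 counts allowed up to 0.131, 0.321 and 0.259 CPM in IP 1, 2 and 3, up to 0.0683 CPM over the pooled IP libraries, and up to 0.180 CPM in the Input. These limits cover counting error only. In all, 26.8% of the 24100 genes had 0 counts in every library, so these genes were in a large group.

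Levels of different genes were compared per kilobase of exon, with lengths from GENCODE, since the annotation behind the counts was not given. In the Input Crhbp was the highest of the 6, at 6.16 CPM per kilobase (counting interval 5.31 to 7.12). Crhr1 followed at 3.46 CPM per kilobase (2.92 to 4.08) and Crh at 0.999 CPM per kilobase (0.626 to 1.51). In this 1 library the RNA of Crhbp and of Crhr1 was thus at a higher level per kilobase than that of Crh, by more than counting error, and the spread between Input libraries is unknown.

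On the captured ribosomes the order was Crh, Crhbp, Crhr1 in each of the 3 libraries. Crh was at 380, 132 and 146 CPM per kilobase in IP 1, 2 and 3. Crhbp was at 3.10, 11.1 and 11.4 CPM per kilobase, and Crhr1 at 0.602, 0.956 and 2.24. The ranges of these 3 genes over the IP libraries did not overlap. Below them, Crhr2, Ucn and Ucn3 were at or under the limits of counting and could not be ordered.

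Ratios of counts within a library do not depend on how libraries are scaled. For each count of Crhbp there were 0.119 counts of Crh in the Input (counting interval 0.0727 to 0.186). In IP 1, 2 and 3 there were 89.8, 8.70 and 9.44. All 3 IP libraries were thus above the Input in this ratio, and IP 1 stood apart from IP 2 and IP 3, being at once highest in Crh and lowest in Crhbp. For each count of Crhr1 there were 1.30 counts of Crhbp in the Input (1.04 to 1.63) and 3.76, 8.5 and 3.70 in IP 1, 2 and 3. This ratio of binding protein to receptor was higher in every IP library than in the Input, and the counting intervals did not overlap that of the Input. An exact permutation test over the 4 libraries cannot go below p = 0.25 with 1 Input, and the ratios were not tested.

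**Figure D3:**
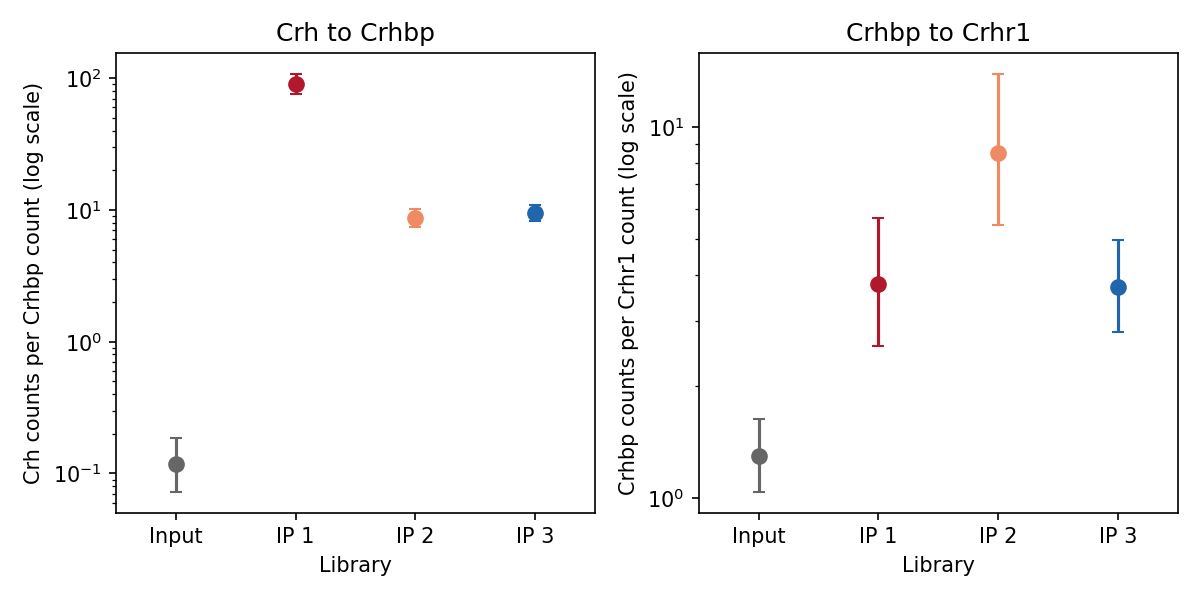
Counts of Crh per count of Crhbp (left) and counts of Crhbp per count of Crhr1 (right) in each library, on log axes, with exact 95% intervals that cover counting error only. The left ratio rises from 0.119 in the Input to between 8.70 and 89.8 in IP, and the right one from 1.30 to between 3.70 and 8.5.

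The genes whose log2 ratios to the Input in IP 1, 2 and 3 lay nearest to those of Crh were sought among 10040 genes with a mean of at least 5 CPM in IP. Nearness was the root mean square difference over the 3 IP libraries, with 0.5 CPM added. Vip, the gene of vasoactive intestinal peptide, was the nearest (difference 0.913), followed by Tac2, the gene of neurokinin B (1.01), the transcriptional coactivator gene Pou2af1 (1.29), the cathepsin E gene Ctse (1.42) and the serotonin receptor channel gene Htr3a (1.60). No gene came within 0.5 of Crh. The ratios of Crh were 8.11, 6.58 and 6.73 in IP 1, 2 and 3, and those of Vip were 6.79, 6.04 and 6.04. Both were highest in IP 1, whereas Pou2af1 (5.87, 6.56 and 6.60) and Ctse (5.65, 6.58 and 6.62) were lowest there. Crh had 22 counts in the Input and Ctse 17, so all of these differences, and the order of the genes, depend on the 0.5 CPM added. This holds most for Pou2af1, which had 1 count in the Input. Its edgeR log2 fold, which depends on the prior count, was 9.40 and thus above that of Crh.

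**Figure D4:**
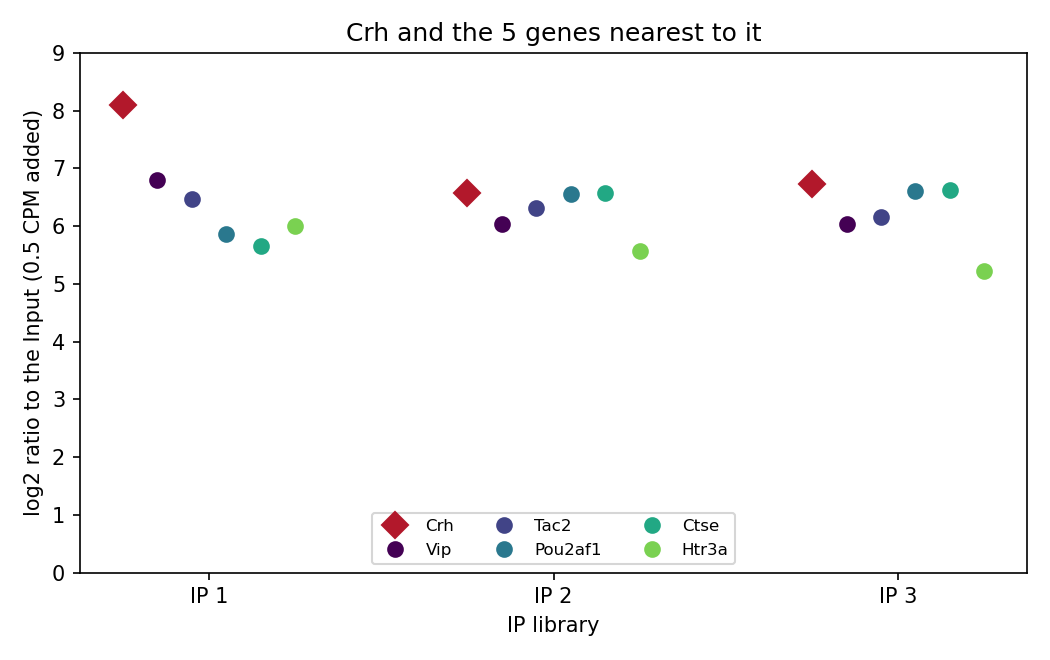
log2 ratio to the Input, with 0.5 CPM added, of Crh (diamonds) and of the 5 genes nearest to it in IP 1, 2 and 3. On this scale Crh is the highest of the 6 in each IP library, at 8.11 in IP 1, 6.58 in IP 2 and 6.73 in IP 3. Ctse and Pou2af1 come close to it in IP 2 and IP 3. This order depends on the 0.5 CPM added, since Input levels were low for Crh (1.32 CPM), Ctse (1.02 CPM) and Pou2af1 (0.06 CPM).

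More genes lay near Crhbp and Crhr1. The ratios of Crhbp were -0.93, 0.82 and 0.85 in IP 1, 2 and 3, and those of Crhr1 were -2.19, -1.66 and -0.58. Within 0.5 of Crhbp there were 361 genes, the nearest being the RNA-binding protein gene Rbm15 (0.0748), Mme, which encodes the peptidase neprilysin (0.0908), and the homeobox gene Zfhx3 (0.121). Within 0.5 of Crhr1 there were 54 genes, the nearest being Mid1ip1 (0.0954), the activin receptor gene Acvr1c (0.181) and the integrator complex gene Ints7 (0.250). These measures rest on 3 IP libraries and 1 shared Input, and they are descriptions.

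No gene beside the 6 in the genome was called. Trim55, a muscle RING finger gene on the opposite strand that ends 979 bases from Crh, had 0 counts in every library. The nearest gene on the other side, the noncoding RNA 4632415L05Rik at 199.5 kb, averaged 36.8 ± 5.39 CPM in IP, against 22.2 CPM in the Input (SD, n = 3). Beside Ucn, Trim54 had 0 counts in every library and Mpv17, a gene of the mitochondrial inner membrane at 1.82 kb, averaged 29.2 ± 10.1 CPM in IP, against 55.5 CPM in the Input. Reads were therefore counted close to Ucn, where Ucn itself had none. Of 12 such neighbours 5 had 0 counts in every library and 5 were tested. Of those tested, 0 were called by edgeR, by DESeq2 or by limma-voom and 0 had an unadjusted p under 0.05. These tools called 0.458%, 1.38% and 0.348% of the genes that each tested, so 0 calls among 5 says little.

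The wider pathway was read from lists of genes that act with CRH. CRH receptors act through G proteins, adenylyl cyclases, protein kinase A and phospholipase C. Of 30 such genes, all tested, 0 passed in edgeR, in limma-voom or in DESeq2, with 1 at an unadjusted p under 0.05. Their median log2 fold was 0.20, beside 0.083 over all genes tested. The 3 tools called 0.458%, 0.348% and 1.38% of the genes that each tested, which is the background for every list here. A count of 0 in lists this short therefore says little about the pathway. The share of all genes at an unadjusted p under 0.05 is not given here. Gnas, the gene of the stimulatory G protein, averaged 2481 ± 390 CPM in IP, against 1786 CPM in the Input (SD, n = 3), above the Input in 3 of 3 IP libraries. Gnao1, the gene of the G protein Go, averaged 2005 ± 141 CPM against 1812 CPM.

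Of 13 genes that desensitize or anchor the receptors 0 were called by any of the 3 tools, with 1 at an unadjusted p under 0.05 (median log2 fold -0.39). Arrb1, the gene of beta-arrestin 1, averaged 376 ± 65.1 CPM in IP, against 237 CPM in the Input. Dlg4, which encodes the postsynaptic scaffold PSD-95, averaged 199 ± 66.6 CPM against 412 CPM, below the Input in 3 of 3 IP libraries. The means of these genes thus lay on opposite sides of the Input, and neither passed the test.

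Of 19 regulators of Crh transcription 17 were tested and 0 were called by any of the 3 tools, with 0 at an unadjusted p under 0.05 (median log2 fold 0.33). Crtc1, a coactivator of CREB, averaged 184 ± 76.6 CPM in IP, against 171 CPM in the Input. The hypothalamic factor gene Sim1 had 0 counts in every library, and Otp had 1 count, in the Input. These last 2 genes were named after their values were seen.

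Among 10 genes that process and store peptides 1 rose, Scg2, the gene of secretogranin II (110 to 477 ± 85.3 CPM, log2 fold 2.12 ± 0.45, adjusted p = 0.0338, edgeR). Its call ended under 6 alternatives, among them leaving out IP 3. The median log2 fold of the list was 0.54, and 3 of the 10 genes had an unadjusted p under 0.05 in edgeR. Besides Scg2 these were Pam (log2 fold 1.29) and Pcsk1n (1.16), named after their values were seen and not called. Of the 10 genes 4 were above the Input in all 3 IP libraries and 1 was below it in all 3, beside 19.7% and 24.1% of tested genes. Cpe, the gene of carboxypeptidase E, averaged 494 ± 72.1 CPM in IP, against 476 CPM in the Input, and Pcsk2, the gene of the prohormone convertase PC2, averaged 302 ± 19.8 CPM against 313 CPM. Neither Cpe nor Pcsk2 was called.

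Of 10 hypothalamic and pituitary partners of CRH, 5 had 0 counts in every library. Besides Ucn2 these were Avp, Oxt, Avpr1b and Mc2r, all named after their values were seen. Of the rest 3 were tested and 0 were called by any of the 3 tools, with 0 at an unadjusted p under 0.05. Pomc, the precursor of the pituitary hormone that CRH releases, averaged 0.447 ± 0.432 CPM in IP, against 0.240 CPM in the Input. Avpr1a, a vasopressin receptor gene, stood at 0, 5.13 and 0 CPM in IP 1, 2 and 3, against 0.540 CPM in the Input.

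Crhr1 and Crhr2 belong to a family of class B peptide receptors, and 8 of 15 listed receptors of it were tested. None passed in edgeR, in limma-voom or in DESeq2, with 1 at an unadjusted p under 0.05 (median log2 fold 0.78). Adcyap1r1, the receptor for PACAP, stood at 162, 169 and 263 CPM in IP 1, 2 and 3, against 73.5 CPM in the Input (log2 fold 1.43 ± 0.52, adjusted p = 0.686, edgeR). Vipr2, a receptor for VIP and PACAP, stood at 33.9, 0 and 0 CPM in IP 1, 2 and 3, against 0.420 CPM in the Input. Counts of Vipr2 on captured ribosomes thus came from IP 1 alone, the library with the most counts in all (23548375). The cause was not tested.

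**Figure D5:**
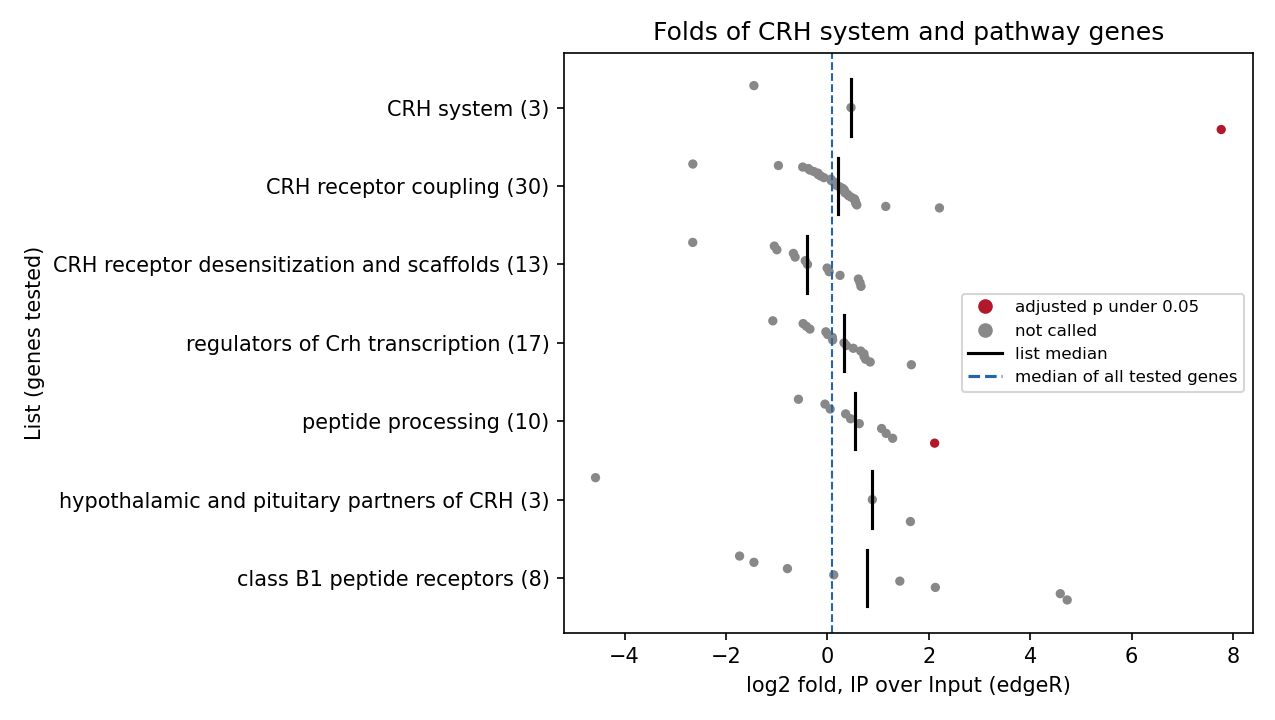
log2 fold of IP over Input from edgeR for every tested gene of the CRH system and of the 6 pathway lists, with the number tested in brackets. Red points passed an adjusted p of 0.05, black bars are list medians and the dashed line is the median of all tested genes (0.083). Only Crh (7.77) and Scg2 (2.12) are red.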

How the data were processed

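The files deposited by the authors hold unnormalized counts, 1 library per file, with an Entrez identifier and symbol per the file headers. The submitters' processing notes name STAR 2.0.0e, HTSeq and mm10, and the annotation, strand and treatment of multiply mapped reads are not given in the sources used here. Counts were analysed in R 4.3.3 with edgeR 4.0.16 (filterByExpr with a minimum count of 10, TMM factors, quasi-likelihood F test, two-sided, Benjamini-Hochberg over all 14636 genes kept, threshold 0.05). Since there was 1 Input, only the IP libraries informed the spread (residual degrees of freedom 2, prior 17.0), which was taken to hold for the Input too. Each SE is the log2 fold over the square root of its F value. Of the 24100 genes 9 had no symbol. A single count was worth 0.0436 to 0.107 CPM. No library was a copy of another (chi-square per degree of freedom at least 84.7 for each pair). The script was tested on simulated data.

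The 6 genes, the lists and the tests were chosen with earlier results of these data known. Besides the 6 genes, the text names list genes past the threshold (up to 4 a list), the 2 others of each list with the highest mean CPM, the genes nearest in pattern to Crh (5), Crhbp (3) and Crhr1 (3), neighbours in the genome and first markers of cell types. A gene that this rule would name among the regulators of transcription is not reported here. Positions, exon lengths and coding sequences are from GENCODE M21 (GRCm38, the same assembly as mm10). Neighbours are the nearest annotated genes present in the count tables. Alternatives were DESeq2 1.42.0, limma-voom (limma 3.58.1), RLE, upper-quartile and total scaling, no filter, a robust prior, a filter at a mean of 5 CPM, a threshold of 0.01, a prior count of 2 and leaving out each IP library. Of the blood markers, Hba-a1 and Hbb-bt were not matched.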

Additional observations from a re-analysis of the deposited data

How the results depend on the processing

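Of 140 values under alternatives, 125 were taken as unmoved. A log2 fold had to keep its direction and its side of the threshold. A count of calls had to be equal to the reported count or within 1.5 times of it. The ratio of Crhr2 had to stay in its counting interval of 0.0212 to 2.21. Many of the 125 were list counts of 0 that stayed 0, or genes not called in either fit. The threshold of 0.01 and the prior count of 2 reused the reported fit. This tally is therefore not a measure of robustness. With limma-voom the call of Crh ended (log2 fold 7.73, adjusted p = 0.426), which left 0 of the 6 genes called, and the log2 fold of Crhbp turned to -0.0027. The call of Scg2, and with it the count of peptide processing genes called, went to 0 with limma-voom, upper-quartile factors, library totals, a mean of at least 5 CPM and an adjusted p of 0.01, and was 0 to 1 when an IP library was left out (0 without IP 3). The count of all genes called was 182 with DESeq2, 108 without a filter, 39 at an adjusted p of 0.01, and 90 to 210 when an IP library was left out (210 without IP 1, 105 without IP 2). The pooled ratio of Crhr2 was 0 to 0.531 when an IP library was left out, and rested on IP 2, without which IP had 0 counts. Over the libraries left out the log2 fold ran from 7.09 to 8.03 for Crh, 0.20 to 0.84 for Crhbp and -2.15 to -1.13 for Crhr1. Crhr1 fell under the mean of 5 CPM and had no value there. Ucn and Ucn3 had no counts, and hence no value under any alternative. Apart from what the construction of an alternative fixes, the cause was not tested. Calls higher against lower were 60 to 7 as reported, with 50 higher of 65 by library totals and 51 higher of 66 by upper-quartile factors, which moved the median log2 fold of all genes from 0.083 to -0.19 and -0.13. No paired analysis was possible because the labels give the Input no replicate number. Depth limits Crhr2, Ucn and Ucn3, whose counts were at or under 3 in every library.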
